A study of Solanum lycopersicum with 9 samples.

Results

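The genes described here are nuclear genes of the photosynthetic apparatus of tomato: light-harvesting proteins, nuclear-encoded subunits of photosystem I and photosystem II, plastocyanin, the small subunits of Rubisco and Rubisco activase. The cluster of Lhcb1 genes on chromosome 2 is not among them. They were chosen as a list of 44 gene identifiers, matched to the part of each identifier before the dot. Of the 44, 42 were read from a count table of 34075 genes. The other 2, Solyc03g005790 and Solyc05g056070, were not analysed here. After the filter on low counts 41 of the 42 entered the tests, among 19358 genes tested in all. The filter was passed by genotype group, so a gene could enter through WT counts alone, and the 1 gene left out, Solyc02g085950, is given separately at the end.

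RNA was sequenced from locular tissue, the soft tissue that surrounds the seeds inside the fruit, of the dwarf tomato cultivar Micro-Tom. The CRISPR-edited lines c2.11 and c2.5 of SlZFP2, a zinc finger transcription factor, were set against WT, with 3 libraries per genotype. Fruits of all 3 genotypes came from greenhouse plants in long days and were collected 6 days post anthesis, and each library pooled the dissected tissue of 6 fruits, with the developing seeds taken out. The labels say nothing of the edited bases or of the number of plants behind a line, and nothing says whether the pools came from separate plants. The p-values then measure only the spread between these pools, which may be technical. The fit uses a common estimate of that spread for all genotypes.

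Photosynthesis starts when chlorophyll held by light-harvesting proteins passes energy to the photosystems in the thylakoid membrane of the chloroplast. Photosystem II takes electrons from water, plastocyanin carries electrons to photosystem I, and Rubisco, kept active by Rubisco activase, fixes CO2 in the stroma. The proteins of this list are made from nuclear genes and imported into the plastid. Young tomato fruit is green and holds chloroplasts, in the locular tissue as well as in the outer fruit wall, and the chloroplasts turn into chromoplasts at ripening. The count table gives identifiers alone, and 0 of the 44 were found in the reference table of 41476 genes, so no single identifier is assigned a protein here and no sequence is shown. The lists of other photosynthesis genes and of seed, epidermis and vascular markers needed gene descriptions and were not applied, so the dissection was not checked by markers, and no identifier was paired with SlZFP2.

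Libraries held between 19963325 and 20727310 counts. Levels are given as normalized CPM, counts scaled to a common library size after scaling with TMM factors, which took values of 1.05 to 1.08 for c2.11 and c2.5 libraries and 0.857 to 0.911 for WT libraries. The scaling thus differed between lines and WT, and its effect is given beside the counts below. Fold changes are on the log2 scale with the standard error of the fit, negative where a line was lower than WT.

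The photosynthesis genes as a group were expressed well below the WT level in both edited lines. Summed over the 42 genes, the level was 14048, 15084 and 14929 normalized CPM in the c2.11 libraries and 14790.3, 15408 and 14990.3 in the c2.5 libraries, against 31573, 28509 and 36570.2 in the WT libraries. All 6 line libraries lay close together and below every WT library, and the highest of them was well under the lowest WT library. The mean was 14687 ± 559 in c2.11 and 15063 ± 315 in c2.5, against 32217 ± 4069 in WT (SD, n = 3 libraries each), a ratio of 0.462 for both lines together over WT. As a share of all counts, with no scaling, the 42 genes took 1.59% ± 0.0468 in the 6 line libraries and 2.83% ± 0.327 in the 3 WT libraries. In bulk tissue, fewer cells with chloroplasts and less of these RNAs per cell cannot be told apart.

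**Figure D1:**
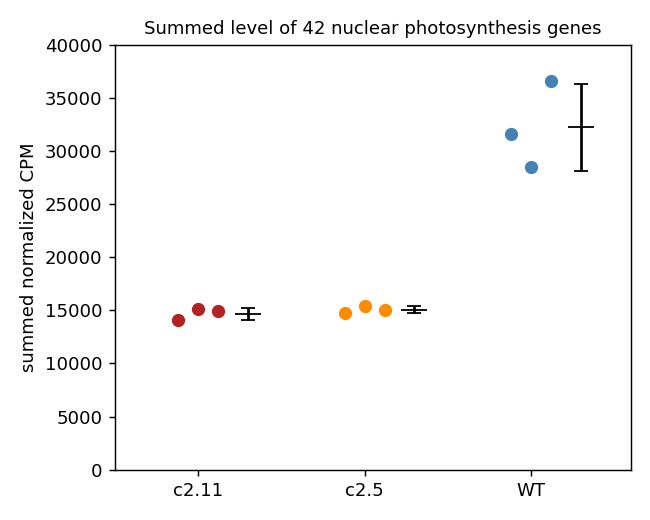
Normalized CPM (y axis, linear from 0) summed over the 42 genes for each library of c2.11, c2.5 and WT (x axis); points are libraries, and the black mark beside each group is the mean with its SD. The 6 line libraries lie between 14048 and 15408, and the WT libraries between 28509 and 36570.2.

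Each of the 41 tested genes was lower in the edited lines. For both lines together 41 of 41 passed the threshold as lower and 0 as higher (edgeR quasi-likelihood test, adjusted p under 0.05 over all genes tested), and 0 were higher at an unadjusted p under 0.05. Of all tested genes 28.6% were lower by the same rule and 28.5% higher, and in the highest quartile of tested genes by mean CPM, which holds 37 of the 41, 40.2% were lower. With TMM factors every line library lay below every WT library in each of the 41 genes, as in 24.9% of all tested genes. With counts scaled to library totals the libraries overlapped for Solyc07g066310 and Solyc08g006930. The share of all tested genes was not computed with that scaling. The median log2 fold change of the 41 was -1.14, beside 0.01 for all tested genes. With counts scaled to library totals alone the 41 had a median of -0.86, beside 0.29 for all tested genes, and 41 of 41 were still lower, beside 15.2% of all tested genes. With TMM factors a fall of at least 2-fold was seen in 28 of the 41, beside 6.98% of all tested genes, and a fall of at least 4-fold in 4, beside 2.36%. These counts depend on the scaling: with counts scaled to library totals the median fall of the 41 was under 2-fold.

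**Figure D2:**
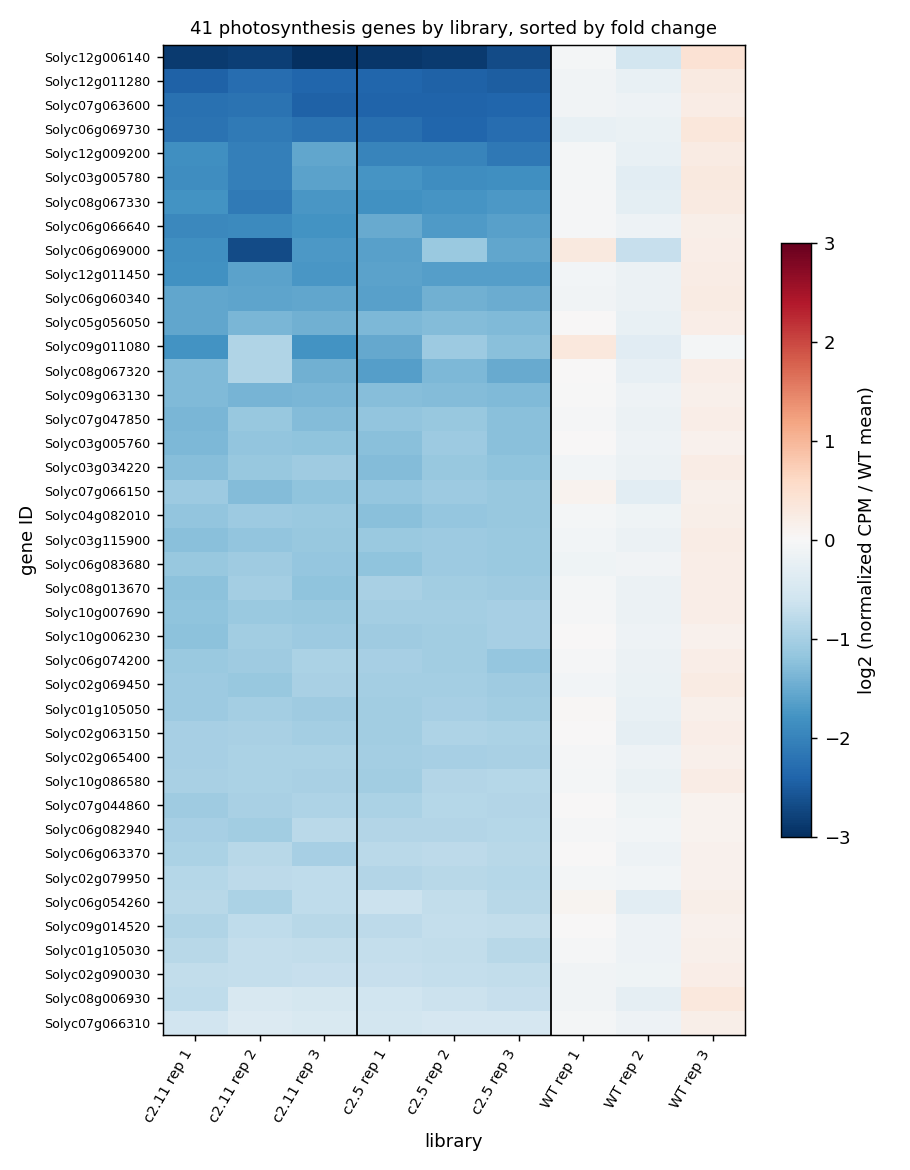
Log2 ratio of each gene's normalized CPM to its WT mean (colour, blue below and red above) for the 41 tested genes (rows, largest fall at the top) in the 9 libraries (columns, c2.11, c2.5, then WT). Blue fills the 6 line columns in each row and is deepest in the top rows, where the log2 change of both lines reaches -2.86, and palest at the bottom, at -0.50, while WT replicate 3 is mostly red and WT replicate 2 mostly pale blue.

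The largest fall was that of Solyc12g006140. It had 22.9, 23.8 and 20.4 normalized CPM in the c2.11 libraries and 22.3, 23.1 and 26.0 in the c2.5 libraries, against 162, 115 and 226 in the WT libraries. The line libraries were alike, and the WT libraries spread over nearly a factor of 2, with the lowest of them still far above the lines. The gene was 7.27-fold lower in both lines together, a log2 change of -2.86 ± 0.19 (SE, edgeR adjusted p = 1.30e-05).

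Another 3 genes fell at least 4-fold. Solyc12g011280 had 77.6, 85.5 and 79.7 normalized CPM in the c2.11 libraries and 80.3, 76.9 and 74.3 in the c2.5 libraries, against 389, 355 and 503 in the WT libraries. Solyc07g063600 had 127, 129.7 and 112 normalized CPM in the c2.11 libraries and 114, 115 and 115 in the c2.5 libraries, against 559, 546 and 708 in the WT libraries. The libraries of a line differed little for either gene, and the groups were far apart. The log2 changes were -2.39 ± 0.09 for Solyc12g011280 (edgeR adjusted p = 1.26e-08) and -2.35 ± 0.08 for Solyc07g063600 (edgeR adjusted p = 8.45e-10). Solyc06g069730 had 40.6, 43.1 and 40.7 normalized CPM in the c2.11 libraries and 39.2, 36.3 and 38.2 in the c2.5 libraries, against 160.4, 164 and 238 in the WT libraries. WT replicate 3 stood above the other WT libraries for this gene, and none came near the lines. Its log2 change was -2.24 ± 0.11 (edgeR adjusted p = 3.13e-07).

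The next 4 by size of fall covered a wide range of levels. Solyc03g005780, the most abundant of them, had 294, 259.9 and 352 normalized CPM in the c2.11 libraries and 314, 293 and 298 in the c2.5 libraries, against 1028, 863 and 1319.8 in the WT libraries. It was 3.55-fold lower in both lines together (-1.83 ± 0.13 on the log2 scale, edgeR adjusted p = 6.18e-06). Solyc06g066640 averaged 44.5 ± 2.15 normalized CPM in c2.11 and 53.2 ± 3.51 in c2.5, against 163 ± 18.7 in WT (SD, n = 3 libraries each). It had the lowest adjusted p of all 41 genes, 7.45e-10, with a log2 change of -1.75 ± 0.07 (edgeR). The scarce Solyc12g009200 averaged 6.32 ± 1.06 normalized CPM in c2.11 and 5.39 ± 0.355 in c2.5, against 22.1 ± 3.67 in WT, with 108 to 160 counts per line library and 333 to 450 per WT library. Solyc08g067330 had 251, 204 and 258 counts in the c2.11 libraries and 251, 251 and 267 in the c2.5 libraries, against 726, 587 and 850 in the WT libraries. These 2 scarce genes fell by amounts close to that of the far more abundant Solyc03g005780, with log2 changes of -1.92 ± 0.11 for Solyc12g009200 (edgeR adjusted p = 2.72e-08) and -1.83 ± 0.11 for Solyc08g067330 (edgeR adjusted p = 2.42e-07).

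The 8 most abundant genes of the list fell by less than these, with log2 changes from -1.23 to -0.79. Solyc03g034220 was the most abundant and ranked number 26 by mean over all genes. It had 1196, 1319 and 1381 normalized CPM in the c2.11 libraries and 1175, 1322 and 1254 in the c2.5 libraries, against 2765, 2569 and 3389.5 in the WT libraries. The lowest WT library was far above the highest line library. Its log2 change was -1.19 ± 0.08 (edgeR adjusted p = 1.37e-07).

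Solyc03g005760 had 946, 1069 and 1045 normalized CPM in the c2.11 libraries and 1010.4, 1142 and 1018 in the c2.5 libraries, against 2434, 2166 and 2665 in the WT libraries, with a log2 change of -1.22 ± 0.07 (edgeR adjusted p = 1.62e-08). Solyc07g047850 had 784, 919 and 829 normalized CPM in the c2.11 libraries and 901, 923 and 858 in the c2.5 libraries, against 1990.5, 1789 and 2323 in the WT libraries, with a log2 change of -1.23 ± 0.08 (edgeR adjusted p = 4.26e-08). For both genes the order of the WT libraries was the same, replicate 3 highest and replicate 2 lowest. Solyc10g006230 averaged 628 ± 42.9 normalized CPM in c2.11 and 669 ± 13.4 in c2.5, against 1369.9 ± 135 in WT and fell by 1.08 ± 0.06 on the log2 scale (edgeR adjusted p = 2.02e-08). Solyc02g065400 averaged 619.7 ± 14.8 normalized CPM in c2.11 and 605 ± 11.1 in c2.5, against 1209.7 ± 129.5 in WT and fell by 0.98 ± 0.06 (edgeR adjusted p = 2.70e-08). Solyc07g044860 averaged 584 ± 31.5 normalized CPM in c2.11 and 618 ± 20.6 in c2.5, against 1153 ± 85.8 in WT and fell by 0.94 ± 0.06 (edgeR adjusted p = 2.33e-08). These 3 genes were thus lower by close to a factor of 2, with a tight spread in the lines. The others of the 8 most abundant, Solyc06g063370 and Solyc09g014520, were also among the 8 genes that fell least. Solyc06g063370 averaged 844 ± 52.2 normalized CPM in c2.11 and 921 ± 16.7 in c2.5, against 1609 ± 148 in WT (-0.87 ± 0.06 on the log2 scale, edgeR adjusted p = 9.40e-08). Solyc09g014520 had 552, 613 and 580.5 normalized CPM in the c2.11 libraries and 599, 626 and 616 in the c2.5 libraries, against 1033, 933 and 1131 in the WT libraries (-0.79 ± 0.06, edgeR adjusted p = 1.94e-07).

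The smallest fall was that of Solyc07g066310, an abundant gene. It had 599, 670.3 and 649 normalized CPM in the c2.11 libraries and 611, 629.5 and 628 in the c2.5 libraries, against 854, 807 and 1008 in the WT libraries. The groups did not overlap with TMM factors, but the gap between the highest line library and the lowest WT library was small. With counts scaled to library totals the groups overlapped. For this gene c2.11 replicate 2 held 14621 of 20727310 counts and WT replicate 2 held 14213 of 20219360. The log2 change was -0.50 ± 0.07, a 1.41-fold fall (edgeR adjusted p = 3.22e-05). Solyc08g006930 had 215, 260.2 and 254 normalized CPM in the c2.11 libraries and 241, 231 and 226 in the c2.5 libraries, against 340.0, 300.4 and 449 in the WT libraries. The WT libraries varied widely for this gene, and its log2 change was -0.61 ± 0.12 (edgeR adjusted p = 0.00188). In c2.11 alone its call ended with counts scaled to library totals, where the value was -0.30 (edgeR adjusted p = 0.0630).

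Solyc02g090030 averaged 394 ± 6.06 normalized CPM in c2.11 and 395 ± 7.86 in c2.5, against 647 ± 86.3 in WT (-0.72 ± 0.07 on the log2 scale, edgeR adjusted p = 1.15e-06). Solyc02g079950 averaged 472 ± 15.4 normalized CPM in c2.11 and 458 ± 8.07 in c2.5, against 828 ± 68.4 in WT (-0.83 ± 0.05, edgeR adjusted p = 4.30e-08). For Solyc06g054260 the means were 316 ± 21.3 normalized CPM in c2.11 and 339.5 ± 23.0 in c2.5, against 566 ± 96.8 in WT, and WT replicate 2, at 457 normalized CPM, stood below the other WT libraries (-0.79 ± 0.10, edgeR adjusted p = 5.65e-05). The 8 genes that fell least made up 26.1% of the summed level of the list in the lines and 20.2% in WT. The 8 that fell most made up 4.23% in the lines and 8.29% in WT. These shares follow from how the genes were picked and are given as a description of the mixture of transcripts.

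The remaining 19 tested genes fell by between 0.91 and 1.72 on the log2 scale, 16 of them by at least 2-fold, with a highest adjusted p of 0.00366 (edgeR). Their means ran from 1.87 to 533 normalized CPM in c2.11 and from 2.85 to 527 in c2.5, against 7.61 to 1261 in WT. Solyc05g056050, whose identifier neighbours that of Solyc05g056070, averaged 77.7 ± 4.71 normalized CPM in c2.11 and 85.0 ± 1.86 in c2.5, against 213 ± 31.0 in WT (-1.39 ± 0.08 on the log2 scale, edgeR adjusted p = 2.84e-08). Among them Solyc12g011450 averaged 245 ± 18.1 normalized CPM in c2.11 and 259 ± 5.11 in c2.5, against 806 ± 123 in WT (-1.68 ± 0.08, edgeR adjusted p = 1.01e-08), and Solyc06g060340 averaged 424 ± 3.84 normalized CPM in c2.11 and 441 ± 28.9 in c2.5, against 1261 ± 202 in WT (-1.54 ± 0.08, edgeR adjusted p = 1.92e-08). Both were named after their values were seen, as the largest falls among abundant genes of this remainder. A further 2 genes, also picked afterwards, had the largest standard errors of the list in both lines together. Solyc09g011080 had 138, 259 and 139 normalized CPM in the c2.11 libraries and 167, 225 and 200.4 in the c2.5 libraries, against 602, 378 and 465 in the WT libraries. Here c2.11 replicate 2 stood apart from the other c2.11 libraries, and WT replicate 1 was the highest WT library. The log2 change was -1.36 ± 0.25, with the highest adjusted p of the 41 genes, 0.00366 (edgeR). The scarce Solyc06g069000 had 46, 26 and 49 counts in the c2.11 libraries and 53, 74 and 56 in the c2.5 libraries, against 172, 83 and 151 in the WT libraries. Its lowest WT library held few more counts than its highest line library, and the log2 change was -1.72 ± 0.24 (edgeR adjusted p = 1.29e-04).

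Each edited line showed the fall on its own, though both are set against the same WT libraries. In c2.11 41 of 41 genes were lower, beside 27.3% of all tested genes, and 28 fell at least 2-fold, beside 7.01%. In c2.5 41 of 41 were lower, beside 25.1%, and 29 fell at least 2-fold, beside 6.58% (edgeR with TMM factors, adjusted p under 0.05). The log2 changes ran from -2.91 to -0.48 in c2.11, with a median of -1.14, and from -2.82 to -0.51 in c2.5, with a median of -1.13. Solyc12g006140 had the largest fall in either line (-2.91 ± 0.25 in c2.11 and -2.82 ± 0.25 in c2.5), and Solyc07g066310 the smallest (-0.48 ± 0.08 in c2.11 and -0.51 ± 0.08 in c2.5). Solyc06g069000 showed the largest gap between the lines, at -2.02 ± 0.30 in c2.11 and -1.42 ± 0.29 in c2.5.

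**Figure D3:**
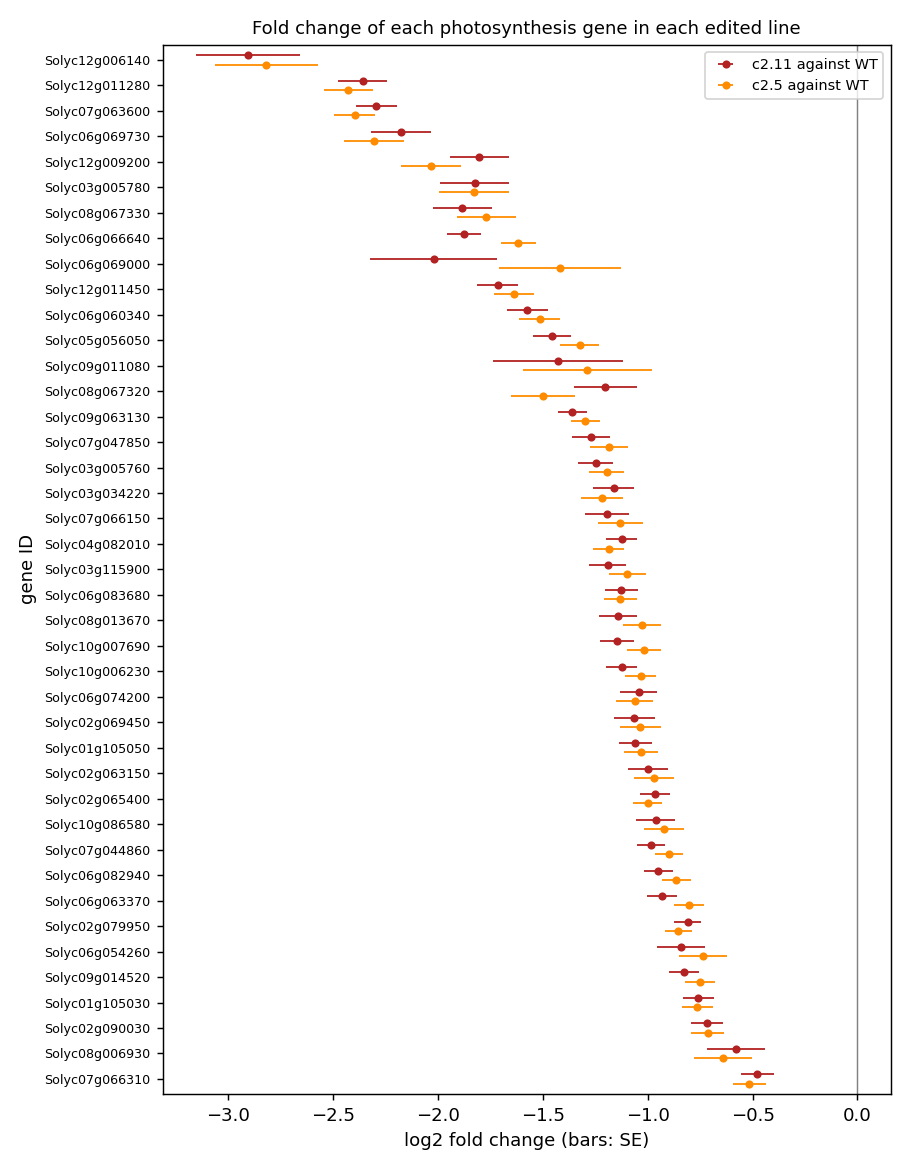
Log2 fold change against WT (x axis, bars are the SE) of the 41 tested genes (y axis, largest fall of both lines together at the top) in c2.11 (dark red) and c2.5 (orange). All points lie left of 0, from -2.91 to -0.48 in c2.11 and from -2.82 to -0.51 in c2.5.

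Set directly against each other in the fit of all 9 libraries, c2.11 and c2.5 were not told apart at any of the 41 genes. In c2.11 against c2.5, 0 of 41 genes passed the threshold (edgeR quasi-likelihood test), beside 1.29% of all tested genes, and 1 had an unadjusted p under 0.05. Beside a share that low, 0 of 41 says little about the list. DESeq2 also called 0. For 36 of the 41 the 95% interval of the log2 difference lay within 0.5 on either side of 0. How many of all tested genes had such an interval was not computed. These intervals use a spread shared with the WT libraries, which varied more at these genes. The 1 gene with a low p was Solyc06g066640, with 42.9, 43.6 and 46.9 normalized CPM in the c2.11 libraries against 56.9, 49.9 and 52.8 in the c2.5 libraries. The libraries of the lines did not overlap for it, and the log2 difference was -0.26 ± 0.08 (95% interval -0.44 to -0.08, edgeR adjusted p = 0.169). With the 2 lines fitted alone this gene was called lower in c2.11 (-0.26, edgeR adjusted p = 0.0379), and it was the only call of the 41 in that fit, beside 3.29% of all genes tested there. An unadjusted p under 0.05 was reached by 6 of the 41 in that fit (edgeR). The share of all tested genes with an unadjusted p under 0.05 was not computed for either fit. The counts at that rule are therefore not read as a result about the list. The differences with the widest intervals were those of the scarce Solyc06g069000 (-0.60, 95% interval -1.31 to 0.10) and of Solyc09g011080 (-0.14, 95% interval -0.88 to 0.60). Differences of that size were not detectable for these genes with 3 libraries per line.

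**Figure D4:**
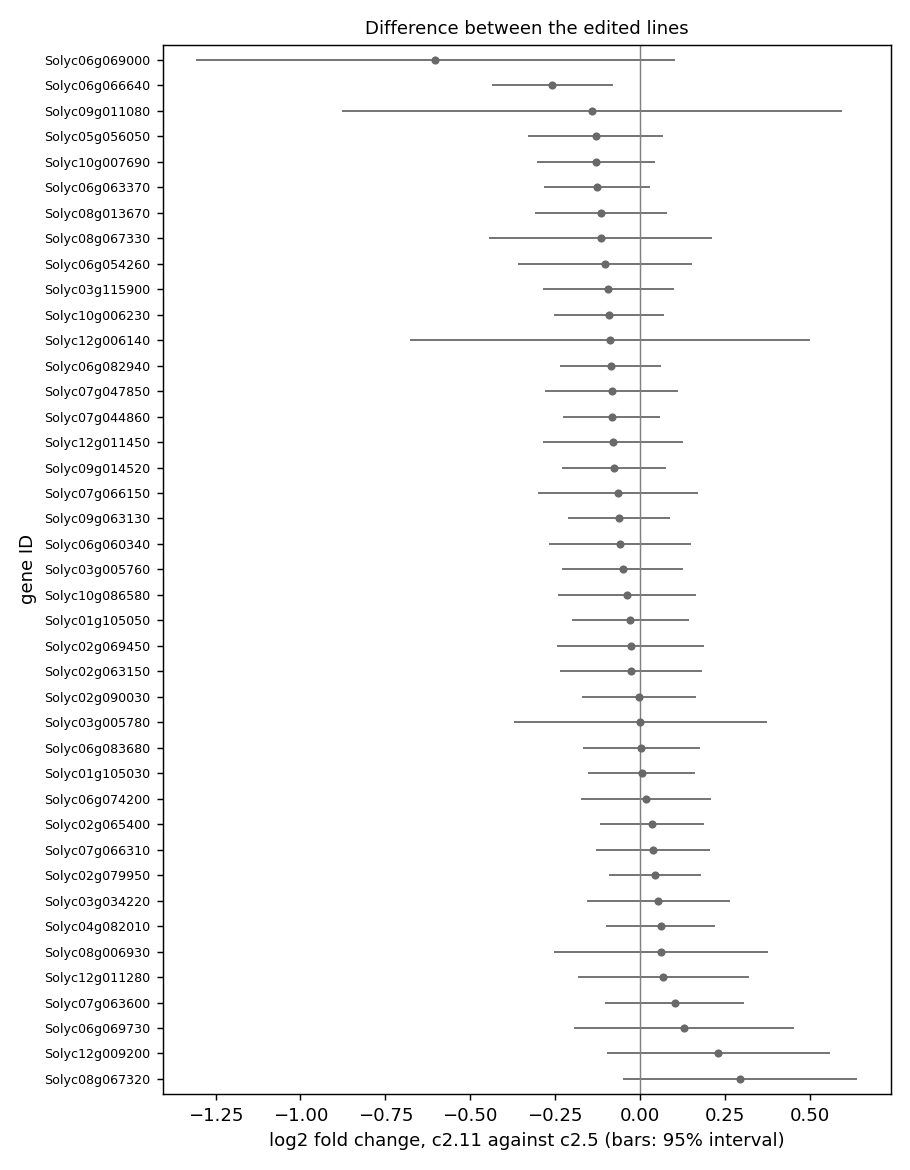
Log2 difference of c2.11 against c2.5 (x axis, bars are 95% intervals) for the 41 tested genes (y axis, lowest difference at the top). Most intervals include 0 and are narrow, that of Solyc06g066640 (-0.44 to -0.08) lies below 0, and those of Solyc09g011080 and Solyc06g069000 are the widest.

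The list holds 3 pairs of measured genes whose identifier numbers on the same chromosome are at most 100 apart, and the count ratio within each library compares the genes of a pair without any scaling between libraries. This test was chosen after the data were seen. Within the pairs, the log2 changes of both lines together were -1.83 ± 0.13 for Solyc03g005780 and -1.22 ± 0.07 for Solyc03g005760, -1.04 ± 0.07 for Solyc01g105050 and -0.76 ± 0.06 for Solyc01g105030, and -1.83 ± 0.11 for Solyc08g067330 and -1.35 ± 0.13 for Solyc08g067320. Solyc01g105030 was 1 of the 8 genes that fell least, with 347 ± 17.3 normalized CPM in c2.11 and 346 ± 13.3 in c2.5, against 586 ± 60.4 in WT (SD, n = 3 libraries each). The ratio of Solyc03g005780 to Solyc03g005760 was 0.311, 0.243 and 0.337 in the c2.11 libraries and 0.311, 0.256 and 0.292 in the c2.5 libraries, against 0.422, 0.398 and 0.495 in the WT libraries. Every line library was below every WT library, a mean log2 difference of -0.59. The ratio of Solyc01g105050 to Solyc01g105030 was 0.990, 0.932 and 0.925 in c2.11 and 0.929, 0.974 and 1.01 in c2.5, against 1.23, 1.10 and 1.17 in WT, with a mean log2 difference of -0.28. The ratio of Solyc08g067330 to Solyc08g067320 was 1.62, 0.967 and 1.79 in c2.11 and 2.02, 1.66 and 1.93 in c2.5, against 2.15, 2.18 and 2.38 in WT, with a mean log2 difference of -0.46. In all 3 pairs the gene with the higher number thus fell further, and the groups did not overlap (two-sided exact permutation test of 6 line against 3 WT libraries, p = 0.0238 for each pair, the smallest this design allows, adjusted p = 0.0238 over the 3 pairs). Such separation was common: it held for 51.4% of all neighbouring pairs of tested genes with a count in every library, and for 45.7% of those in which both genes were called lower, so 3 of 3 pairs says little about the photosynthesis genes. How reads that match both genes of a pair were counted is not stated by the labels, so the split between near-identical genes is uncertain.

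The WT libraries differed among themselves in the whole list. Among them WT replicate 3 held the highest level of 39 of the 41 genes, beside 34.9% of all tested genes, and WT replicate 2 the lowest of 39, beside 34.2%. WT replicate 3 was 1.30 times WT replicate 2 at the median gene of the list, from 1.14 for Solyc06g082940 to 1.97 for Solyc12g006140, beside 1.01 at the median of all tested genes. The exceptions to WT replicate 3 as the highest were Solyc06g069000 and Solyc09g011080, both highest in WT replicate 1. With counts scaled to library totals, WT replicate 3 was highest for 37 and WT replicate 2 lowest for 41. The median coefficient of variation over the 41 genes was 6.14% in c2.11 and 3.34% in c2.5, against 14.5% in WT. Over the highest quartile of tested genes by mean CPM it was 4.07% in c2.11 and 3.54% in c2.5, against 6.05% in WT. Since the fit used a common spread for all genotypes, standard errors and adjusted p against WT may be too small for these genes. Intervals between c2.11 and c2.5 may be too wide. Without WT replicate 3 the median log2 change of both lines together was -1.02, without WT replicate 2 it was -1.21, and 41 of 41 were lower either way.

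Relative to all tested genes the list stood at the lower end of the fold changes without reaching the extremes. In all, 6.37% of all tested genes had a log2 change at or below the median of the list, and 16.8% fell as far as its smallest fall, that of Solyc07g066310. By mean normalized CPM, 4 of the 41 were among the 100 most abundant tested genes of the lines, against 9 in WT. Their median rank was 413 in the lines and 194 in WT. These ranks compare counts that are not corrected for gene length and are used only between genotypes.

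**Figure D5:**
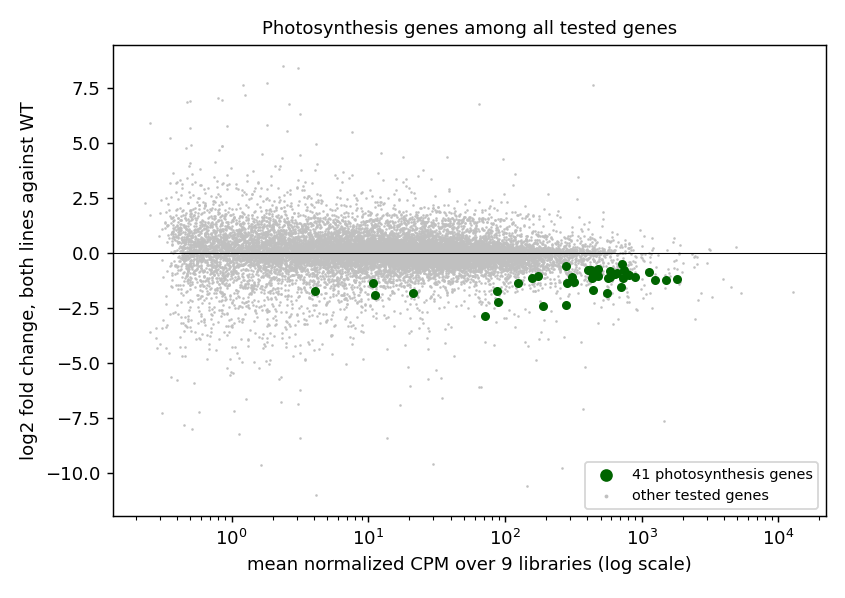
Log2 fold change of both lines together against WT (y axis) by mean normalized CPM over the 9 libraries (x axis, log scale) for the 41 tested photosynthesis genes (green) and all other tested genes (grey). The green points lie below 0 at every level, with a median of -1.14 beside 0.01 for all tested genes, and other genes fell much further.

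By the chromosome digits of the identifiers, the 42 genes lie on 11 chromosomes, with 9 on chromosome 6 and 6 on chromosome 2, and the fall was seen on each. The 4 genes on chromosome 12 had a median log2 change of -2.16, the 9 on chromosome 6 one of -1.13, and the 5 tested genes on chromosome 2 one of -0.98. The smallest median fall was that of the 2 genes on chromosome 1, at -0.90. Medians over all tested genes of each chromosome were not computed. The remaining gene, Solyc02g085950, had very few counts, with 3, 5 and 4 in the c2.11 libraries and 1, 5 and 7 in the c2.5 libraries, against 6, 10 and 9 in the WT libraries. At this depth a count moves by several units through counting error alone. With no filter on low counts it was called lower in both lines together (edgeR adjusted p = 0.0480), and in neither line alone (edgeR adjusted p = 0.0842 in c2.11 and 0.122 in c2.5).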

How the data were processed

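The deposited table holds the authors' raw whole-number counts per gene and library. The submitters' processing notes name FastQC and featureCounts without versions, and the labels' protocols give stranded mRNA libraries with paired reads of 150 bases. No source used here states the aligner, genome build, annotation or strand setting, so counts of overlapping, antisense or near-identical genes are uncertain. Libraries held 19963325 to 20727310 counts.

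The test was edgeR's quasi-likelihood test (version 4.0.16, R 4.3.3) with filterByExpr by genotype, TMM scaling and a robust fit over all 9 libraries, with Benjamini-Hochberg adjustment over 19358 genes and a threshold of 0.05. Standard errors are the log2 fold change divided by the square root of F, and 95% intervals use the test's degrees of freedom. Count ratios within libraries were compared by exact two-sided permutation (scipy 1.17.1). Alternatives were DESeq2 1.42.0, median-of-ratios factors, total counts, TMM without the listed genes, other filters, a replicate block, fits of 2 genotypes, a 2-fold minimum and single libraries left out.

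Genes named in full were the 8 most abundant, the 8 with the lowest and the 8 with the highest log2 fold change among those called, and genes with neighbouring identifiers. Exceptions are marked. The genes, lists and tests were chosen with earlier results of these data known. No library duplicated another of its genotype (lowest chi-square per degree of freedom 4.51).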

Additional observations from a re-analysis of the deposited data

How the results depend on the processing

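The counts of 41 lower and 0 higher genes for both lines together, for c2.5 and for c2.11 held with DESeq2, median-of-ratios factors, TMM factors computed without the listed genes, the stricter filter of 1 CPM in 6 libraries, the replicate block, fits of the 2 genotypes compared and without any single library (41 to 41 lower and 0 to 0 higher). Under these settings 22.1% to 29.3% of all tested genes were lower in a comparison with WT. With counts scaled to library totals the lower genes of the list numbered 41, 41 and 40, beside 15.2%, 13.3% and 14.7% of all tested genes. With no filter on low counts they numbered 42, 41 and 41 of 42, beside 22.0%, 18.9% and 20.6%. A 2-fold minimum, applied with TMM factors only, left 28, 29 and 28. In c2.11 against c2.5 the count was 0 lower and 0 higher under each alternative, single libraries left out included (0 to 0), except that 1 gene was lower with only the 2 lines fitted, a fit in which the WT libraries do not enter the spread. The highest adjusted p of any of the 41 genes in both lines together was 0.0233 over these settings.

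Total count scaling moved the summed level to 15608 normalized CPM in c2.11, 16114 in c2.5 and 15861 in both lines together, against 28314 in WT, a ratio of 0.560 in place of 0.462, since it drops the TMM factors. Without the most abundant gene the sums were 13388, 13813 and 13600.3, against 29309 in WT. Without single libraries the sums ranged from 14488 to 15006 in c2.11, 14890.3 to 15199 in c2.5, 14768 to 15040.3 in both lines together and 30041 to 34071 in WT. The difference of Solyc09g011080 between c2.11 and c2.5 (-0.14) ranged from -0.51 to 0.014 without single libraries, with a changed sign without c2.11 replicate 1 (0.014) or 3 (0.011), and it was not called in any setting. The log2 differences of the pair ratios ranged from -0.32 to -0.24 (Solyc01g105050), -0.66 to -0.50 (Solyc03g005780) and -0.53 to -0.31 (Solyc08g067330) without single libraries. Without a WT library the exact test of 6 against 2 libraries cannot go below 0.0714. Nothing shows that same-numbered libraries of different genotypes share more than a number: after subtraction of the genotype mean their log2 CPM correlated at -0.27 to 0.23, and differently numbered libraries at -0.26 to 0.35. The replicate block gave 41 lower genes in each comparison with WT and 0 calls between the lines.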

Other observations

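The tested genes whose identifiers stand directly before or after a photosynthesis gene in identifier order, and are not on the list themselves, numbered 78. Of these, 28 were lower, 18 higher and 32 not called in both lines together (edgeR, adjusted p under 0.05). That is 35.9% lower and 23.1% higher, beside 28.6% and 28.5% of all tested genes. Their median log2 change was -0.08, beside -1.14 for the list. Identifier order was taken from the digits of the identifiers, and neighbours can include photosynthesis genes that are not on the list.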
